A study of Mus musculus with 2 samples.

Results

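The glucocorticoid receptor gene Nr3c1, the hormone-activating enzyme gene Hsd11b1 and 7 genes known as direct targets of the receptor were described in adult mouse liver. These 9 genes were chosen by known function, with earlier results of these data in view, and each was read from the probe of the array annotated to its symbol alone. They are 9 of 19938 genes with such a probe, and all 9 were among the 11924 genes past the level filter, a mean log2 value of at least 5.44. Each had exactly 1 probe, so no choice between probes arose. Because the choice could draw on the differences given here, these are a description and carry no test.

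The series holds 2 Affymetrix arrays, 1 for the liver pool labelled FHL2-/- and 1 for the wild-type pool. Both pools combined RNA of 3 male mice aged 10 to 11 weeks on a Hybrid Black Swiss/129-SV/J background, taken from the left lobe. The knockout label denotes loss of FHL2, an adaptor built of LIM zinc-binding domains, and the labels name no hormone treatment in either pool. With 1 array per group there are no replicates and pooling hides the spread between mice, so every difference is between these pools. The labels used here give no corticosterone level, hour of dissection or feeding state.

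The receptor encoded by Nr3c1 waits in the cytosol bound to heat shock chaperones, enters the nucleus when corticosterone binds, and attaches to DNA as a dimer at inverted repeats of a short hexamer. In liver it is known for switching on gluconeogenesis and amino acid breakdown and for restraining inflammation. Hormone supply has a daily rhythm and rises with stress, and inside hepatocytes Hsd11b1 regenerates active hormone from its inert form.

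RefSeq promoter windows of build GRCm38.p6, each covering 250 bases before to 50 after an annotated start, were available for 7 of the 9 genes in 14 windows. Nr3c1 and Zbtb16 are named only. Windows of Sgk1 and Tsc22d3 are shown because they hold the receptor's hexamer, and those of Ddit4 and Fkbp5 because these genes had the largest differences among genes with a window. Capitals mark AGAACA on either strand (TGTTCT on the strand shown) and, in Sgk1, an inverted repeat of it with its 3-base spacer.
Sgk1, chr10:21993640-21993939, plus strand: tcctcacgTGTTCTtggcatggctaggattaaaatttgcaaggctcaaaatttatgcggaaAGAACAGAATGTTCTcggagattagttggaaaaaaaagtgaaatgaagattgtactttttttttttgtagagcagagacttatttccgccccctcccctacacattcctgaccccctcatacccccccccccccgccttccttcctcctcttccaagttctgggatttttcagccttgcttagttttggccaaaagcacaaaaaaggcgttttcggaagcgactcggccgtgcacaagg
Tsc22d3, chrX:140600473-140600772, minus strand: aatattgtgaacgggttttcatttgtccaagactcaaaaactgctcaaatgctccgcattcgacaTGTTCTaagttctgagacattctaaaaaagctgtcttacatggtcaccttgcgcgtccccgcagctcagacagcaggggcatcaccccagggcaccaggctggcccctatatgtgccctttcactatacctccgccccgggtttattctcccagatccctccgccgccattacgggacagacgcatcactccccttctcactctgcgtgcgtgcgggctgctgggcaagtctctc
Ddit4, chr10:59951721-59952020, minus strand: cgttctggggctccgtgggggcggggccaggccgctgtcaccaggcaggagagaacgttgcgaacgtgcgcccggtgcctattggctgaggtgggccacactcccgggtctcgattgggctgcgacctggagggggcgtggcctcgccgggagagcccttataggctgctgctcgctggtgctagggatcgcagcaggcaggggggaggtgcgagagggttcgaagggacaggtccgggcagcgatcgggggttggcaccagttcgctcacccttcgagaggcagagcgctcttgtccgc
Fkbp5, chr17:28486100-28486399, minus strand: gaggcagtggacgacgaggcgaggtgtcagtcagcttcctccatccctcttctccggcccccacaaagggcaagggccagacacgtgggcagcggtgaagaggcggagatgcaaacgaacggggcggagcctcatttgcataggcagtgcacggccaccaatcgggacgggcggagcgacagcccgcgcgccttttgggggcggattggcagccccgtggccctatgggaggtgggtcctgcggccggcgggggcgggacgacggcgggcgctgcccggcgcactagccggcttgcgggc

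The Sgk1 window carried an exact inverted repeat of AGAACA at bases 62 to 76, counted from the window's 5′ end, and a further TGTTCT at bases 9 to 14. Only 3 of 32851 promoter windows in the RefSeq table (0.00913%) held this exact repeat. The others belonged to Acnat2, an acyltransferase-like gene, and to Gm35041, for which no value was measured here. Acnat2 was at 6.89 in the knockout-labelled pool and 6.50 in the wild-type pool, a log2 difference of 0.38. The hexamer alone was common, present in 19% of all windows, and it occurred in 4 of the 14 windows shown or searched here, 3 of Sgk1 and 1 of Tsc22d3. In Tsc22d3 it lay at bases 66 to 71. An inverted repeat of the looser arm GNACA, which includes the exact repeat, was held by 0.475% of all windows and, among these genes, by the same Sgk1 window alone. The windows of Hsd11b1, Tdo2, Tat, Ddit4 and Fkbp5 held neither AGAACA, on either strand, nor the looser repeat. Sequence outside the windows was not searched, so absence here does not mean that a gene lacks a receptor site. Sgk1 has 6 windows in the table and Tsc22d3 has 3, and the array gives a gene's starts no values of their own.

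Most of the targets chosen here were higher in the knockout-labelled pool, by small amounts. Of the 7 targets, 6 were above 0, where 59.5% of all genes past the filter were, with Ddit4, Zbtb16, Fkbp5 and Tsc22d3 in the lead and Tdo2 level between the pools. The median log2 difference, knockout-labelled minus wild-type, was 0.12 over the 9 genes and 0.21 over the 7 targets, against 0.04 over all genes past the filter. At a threshold of 1.5-fold 0 of the 9 were higher, where 0.621% of all genes were, and 0 of the 9 were lower, where 0.335% of all genes were. At a milder threshold 3 of the 9 were at least 25% above their wild-type level, where 4.89% of all genes were, and for 0 of the 9 was the wild-type level 25% above the knockout-labelled level, where that held for 3.8% of all genes. The genes were selected with these values in view, so nothing about receptor targets is read from the 6 above 0, the medians or the 3. Over all genes past the filter, 74 reached 1.5-fold on the higher side and 40 on the lower, so that 64.9% were higher. This share was 75% (90 against 30) once the array medians were made equal. It was 58.5% (62 against 44) after a lowess curve of the difference on level was subtracted, and 53.5% (153 against 133) without the filter.

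**Figure D1:**
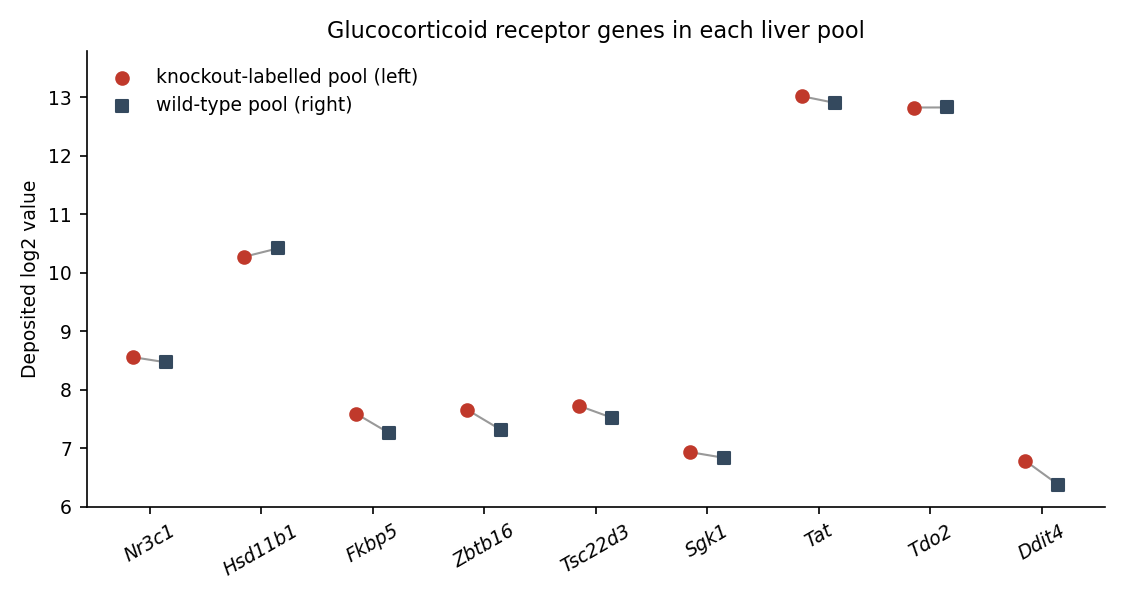
Deposited log2 values of the 9 genes (vertical axis) in the knockout-labelled pool (circles, left) and the wild-type pool (squares, right), 1 array each, joined by a line per gene. The lines slope down to the right most for Ddit4, Zbtb16 and Fkbp5, and up for Hsd11b1. Heights of different genes come from different probes and cannot be set against each other.

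The receptor gene itself differed little. Nr3c1 was at 8.56 in the knockout-labelled pool and 8.47 in the wild-type pool on the log2 scale, 1.06-fold apart. Of all genes past the filter, 37.3% had a difference at least as high. Hsd11b1 ran the other way, at 10.28 in the knockout-labelled pool and 10.42 in the wild-type pool, a difference of -0.14 or 1.10-fold lower. Over all genes 15% were at least as low, but bright probes vary less on these arrays, and among the 500 genes nearest to it in level the share was 7.4%.

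Fkbp5 encodes an immunophilin that sits on the receptor complex and lowers its affinity for hormone, and its induction by the receptor closes a feedback loop. It was at 7.59 in the knockout-labelled pool and 7.25 in the wild-type pool, a difference of 0.34 or 1.26-fold. This placed it among the highest 4.29% of all genes and the highest 5.2% of the 500 nearest in level.

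Zbtb16 and Tsc22d3 encode transcriptional regulators. Zbtb16, a BTB zinc finger repressor also called PLZF, was at 7.65 in the knockout-labelled pool and 7.31 in the wild-type pool, a difference of 0.34 or 1.27-fold. It was among the highest 4.11% of all genes. Tsc22d3, a leucine zipper protein also called GILZ that mediates anti-inflammatory actions of the hormone, was at 7.72 in the knockout-labelled pool and 7.52 in the wild-type pool. Its difference of 0.21, or 1.15-fold, was reached by 14.4% of all genes and by 18.4% of those nearest in level.

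Ddit4 and Sgk1 link the hormone to growth and ion transport. Ddit4, also called REDD1, restrains the growth-promoting kinase complex mTORC1. It had the largest difference of the 9 genes, 0.42 or 1.33-fold, with 6.79 in the knockout-labelled pool and 6.37 in the wild-type pool. That was among the highest 2.15% of all genes but only the highest 4.8% of those nearest in level, where values scatter more. Sgk1, a kinase that keeps sodium channels at the cell surface, was at 6.93 in the knockout-labelled pool and 6.83 in the wild-type pool. Its difference of 0.10 was met by 35.7% of all genes and was among the smaller ones of the 9. Acnat2, the other measured gene with the exact repeat, was at 0.38. Any link between the repeat and the difference was not tested.

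Tat and Tdo2 encode classic hormone-induced enzymes of amino acid breakdown in hepatocytes. Tat, which removes the amino group of tyrosine, was at 13.02 in the knockout-labelled pool and 12.91 in the wild-type pool, a difference of 0.12 or 1.08-fold. Tdo2, which opens the ring of tryptophan, was at 12.83 in both pools, with a difference of -0.00090. Of the 500 genes nearest in level, 20.8% were at least as high as Tat, against 31.2% of all genes. These 500 spanned a wide range of mean log2 values, from 10.77 to 13.71.

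**Figure D2:**
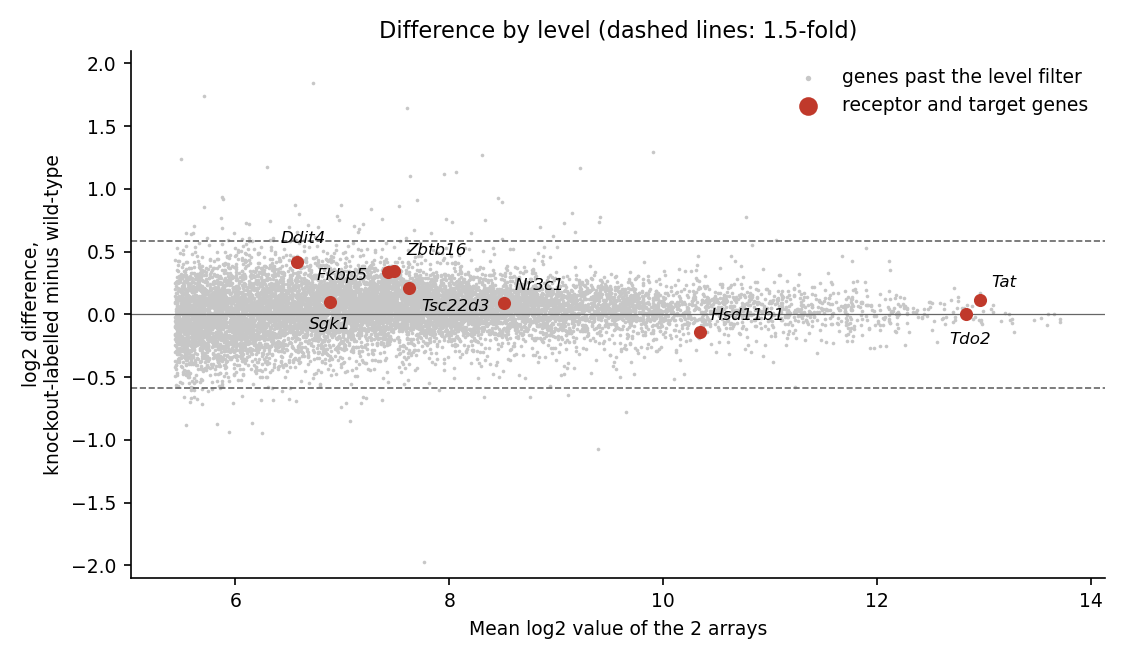
Log2 difference, knockout-labelled minus wild-type (vertical axis), against the mean log2 value of both arrays (horizontal axis) for the 11924 genes past the level filter in grey and the 9 genes in red. All 9 lie between the dashed lines at 1.5-fold, with Ddit4 highest at 0.42 and Hsd11b1 lowest at -0.14.

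In descending order the differences ran Ddit4, Zbtb16, Fkbp5, Tsc22d3, Tat, Sgk1, Nr3c1, Tdo2 and Hsd11b1. The only repeat measurement in these data is that of several probes for a gene, whose differences had an SD of 0.143 over 660 genes with 1809 probes. It covers probe error and neither animals nor hybridisations. Ddit4, Zbtb16, Fkbp5 and Tsc22d3 exceeded this SD, and Hsd11b1, at -0.143, equalled it in size at this precision. No neighbours in the order were further apart than this SD. The widest such gap was 0.142, between Tdo2 and Hsd11b1. The SD is that of a single difference, while a gap carries the error of both genes, so it is a lenient yardstick for gaps. Under a shift to a common median Tdo2 turned to 0.04, while the other 8 genes kept their sign. Subtraction of a lowess curve fitted on level left Ddit4 at 0.39, Zbtb16 at 0.28, Fkbp5 at 0.27 and Tsc22d3 at 0.14. It left Tat at 0.10, Sgk1 at 0.05, Nr3c1 at 0.04 and Tdo2 at -0.02, and it put Hsd11b1 at -0.18, past the SD between probes on the lower side.

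**Figure D3:**
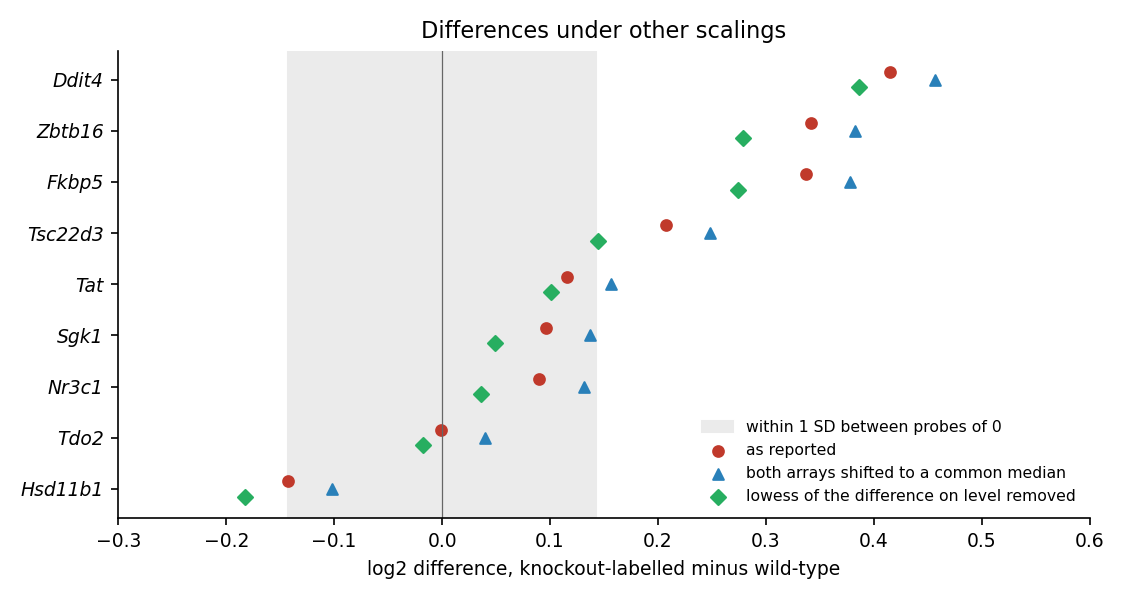
Log2 difference, knockout-labelled minus wild-type (horizontal axis), of the 9 genes as reported (circles), after the array medians were made equal (triangles) and after lowess on level (diamonds). The grey band spans 1 SD between probes on either side of 0. Ddit4, Zbtb16, Fkbp5 and Tsc22d3 lie right of the band or at its edge under each of these, from 0.14 for Tsc22d3 after lowess to 0.46 for Ddit4 after the shift.

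Other genes that glucocorticoids are known to regulate in liver were spread widely. Of 40 listed, 36 were measured and 33 passed the filter, with a median difference of 0.25 against 0.04 over all genes. Above 0 were 22 of the 33, not far from the 59.5% of all genes. At least 1.5-fold higher were 6 of the 33 and at least 1.5-fold lower was 1, beside 0.621% and 0.335% of all genes. The list was drawn up with earlier results known. Nothing about receptor targets is therefore read from these values or from the shorter list that follows. Without Mfsd2a, Lcn2, Cyp2b10, Angptl4 and Bcl6, whose values were known, 28 genes had a median of 0.17, with 18 above 0, 2 at least 1.5-fold higher and 0 as much lower. Those 2 were Errfi1, a feedback inhibitor of the EGF receptor, and Got1, an aspartate transaminase that feeds gluconeogenesis. Errfi1 was at 11.16 in the knockout-labelled pool and 10.38 in the wild-type pool, and Got1 at 11.35 in the knockout-labelled pool and 10.76 in the wild-type pool.

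Further genes of that list were picked after their values were seen. G6pc, which releases free glucose, was at 0.53, and Pck1, which commits carbon to gluconeogenesis, was at 0.42. The metallothioneins Mt2 and Mt1 were at 0.45 and 0.41, and transcripts of near-identical metallothioneins can share probes. The clock and hormone target Per1 was at 0.43, Cebpb at 0.37, the NF-kappaB inhibitor gene Nfkbia at 0.33 and Klf9 at 0.26. Dusp1, a phosphatase induced early by the hormone, was at 0.10. On the other side were Rgs2, a regulator of G protein signalling, at -0.48, the kinase gene Map3k6 at -0.35, Igfbp1, which binds insulin-like growth factors, at -0.29 and Pdk4, a brake on pyruvate oxidation, at -0.24. Some of these were dim, near the level filter of 5.44. Per1 was at 5.86 in the knockout-labelled pool and 5.44 in the wild-type pool. In the same order Map3k6 was at 5.30 and 5.65, and Rgs2 at 5.74 and 6.22. Genes of this list lay on both sides. Its ends were Mfsd2a, a lysophospholipid transporter, at 1.84, Lcn2, an acute phase protein, at 1.64 and the repressor gene Bcl6 at -1.98. All of these were listed with their values known, so the width of the list follows from the choice. Without the 5 genes known beforehand, those past the filter ran from Rgs2 at -0.48 to Errfi1 at 0.78.

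Genes of the receptor's own machinery were spread around 0. Of 21 measured chaperone, receptor and coregulator genes, 11 were above 0, where 59.5% of all genes were, and the median was 0.01. At 1.5-fold 0 were higher and 0 lower, beside 0.621% and 0.335% of all genes, shares at which a list of this size holds few or none. The highest was Nr3c2, the mineralocorticoid receptor that binds the same hormone, at 7.15 in the knockout-labelled pool and 6.75 in the wild-type pool, a difference of 0.40. The co-chaperone Dnajb1 followed at 0.30. Lowest were Stip1, which hands the receptor from HSP70 to HSP90, at -0.34 and Hsp90aa1, the inducible HSP90, at -0.31. The 3 probes of Hsp90aa1 gave -0.31, -0.26 and -0.40. Fkbp4, which competes with FKBP5 for the receptor complex and favours its transport to the nucleus, was at -0.23, opposite in sign to Fkbp5.

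Corticosteroid supply and clearance genes had a median of 0.06 over 12 genes, with 9 above 0, beside 59.5% of all genes. At 1.5-fold 1 was higher and 0 lower, beside 0.621% and 0.335% of all genes. The 1 was Cyp2b10, a drug-metabolising cytochrome already counted in the list of responsive genes, at 6.91 in the knockout-labelled pool and 6.25 in the wild-type pool, or 1.58-fold. H6pd, which supplies Hsd11b1 with reducing power, was at 0.17, above 0 where Hsd11b1 was below it. Serpina6, the corticosteroid carrier of blood, was at 0.01, and Abcb1a, an efflux pump, at 0.18. The lowest past the level filter were Cyp3a11, which hydroxylates steroids, at -0.14 and Hsd11b2, which inactivates the hormone, at -0.13.

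Enzymes that work beside Tat and Tdo2 differed by at most 0.23. All 6 measured tyrosine breakdown genes were above 0, beside 59.5% of all genes, with a median of 0.08. Qdpr, which recycles the cofactor of phenylalanine hydroxylase, was at 0.23, Fah, the last enzyme of the route, at 0.16, Pcbd1 at 0.05 and Gstz1 at 0.02. Of 10 tryptophan and kynurenine genes past the filter 7 were above 0, with a median of 0.13. Ido2, which shares the reaction of Tdo2, was at 0.21 and the hydrolase Kynu at 0.20, against -0.04 for the transaminase Aadat and -0.11 for its relative Kyat3. At 1.5-fold 0 of the 16 were higher and 0 lower, near the shares over all genes of 0.621% and 0.335%.

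Relatives and partners of the other targets had medians between -0.05 and 0.10, beside 0.04 over all genes. Genes of mTORC1 control beside Ddit4 had a median of 0.0040 over 15, with the inhibitor Akt1s1 at 0.24, the glucose sensor Txnip at 0.19, Tbc1d7 at -0.03 and the Ddit4 relative Ddit4l at -0.05. Kinases and substrates around Sgk1 had a median of 0.03 over 14, with Foxo3 at 0.25, Ndrg1 at 0.12, Akt1 at -0.12 and Foxo1 at -0.20. The TSC22 family and partners had a median of 0.10 over 6. Tsc22d2 was at 0.20 and the kinase gene Wnk1 at 0.16, or 0.36 with its second probe and 0.26 with the mean of both, while Tsc22d4 and Tsc22d1 were at -0.15 and -0.24, opposite in sign to Tsc22d3. Relatives of Fkbp5 had a median of -0.03 over 11, with Fkbpl at 0.20, Fkbp8 at 0.10, Fkbp1a at -0.11 and Fkbp4 lowest. BTB zinc finger relatives of Zbtb16 had a median of -0.05 over 29, with Zbtb41 at 0.34, Zbtb48 at 0.26 and Zbtb7c at -0.37, and 1 of them was at least 1.5-fold lower, beside 0.335% of all genes. That was Bcl6, already counted in the list of responsive genes.

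**Figure D4:**
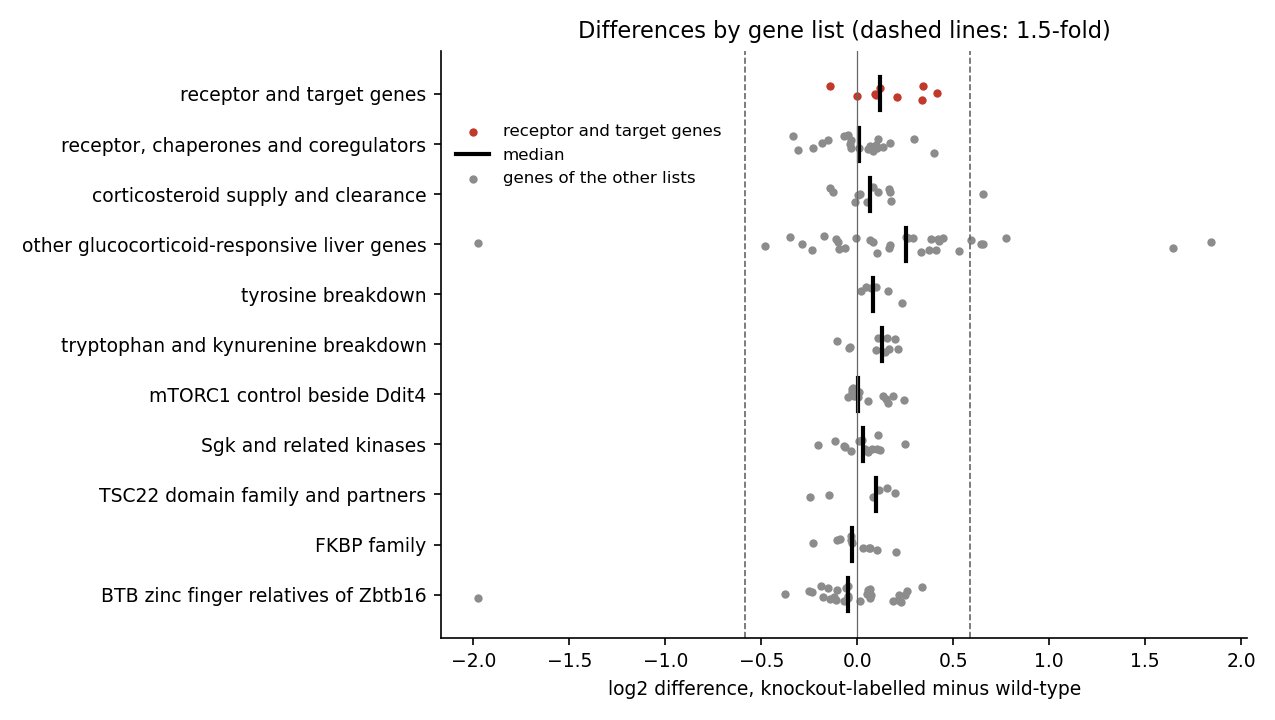
Log2 differences, knockout-labelled minus wild-type (horizontal axis), of the 9 receptor and target genes (red) and of the genes past the level filter in the 10 other lists (grey, 1 row each); black bars are medians and dashed lines mark 1.5-fold. The list of other glucocorticoid-responsive genes has the widest spread, from -1.98 to 1.84, and a median of 0.25. Both ends, Bcl6 and Mfsd2a, are genes listed with their values known.

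The genes whose pair of values lay nearest to that of Ddit4 were Slc44a3, Cavin2 and Kctd15, at log2 distances of 0.0077, 0.035 and 0.036. Likeness over 2 arrays rests on the level and 1 difference.

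Fhl2 was at 5.33 in the knockout-labelled pool and 5.30 in the wild-type pool, under the cut on level. Which exons the allele lacks is not in the labels, so this probe checks nothing, and the pool is called knockout-labelled. Hepatocyte markers were bright, with Alb at 13.67 in the knockout-labelled pool and 13.74 in the wild-type pool, and the 7 measured had a median difference of -0.04. Of 5 adrenal cortex markers 0 passed the filter. All 8 Kupffer cell and macrophage markers were below 0, from -0.40 to -0.0025, and 5 of 6 sinusoidal endothelial markers were above 0. Over all genes past the filter 59.5% were above 0. Of other markers past the filter, 3 of 5 for stellate cells and 2 of 3 for bile duct were above 0. So were 1 of 3 for skeletal muscle, 0 of 3 for T, NK and B cells, and 0 of 1 each for neutrophils and fat cells. Fkbp5, Tsc22d3 and Zbtb16 are also expressed in cells other than hepatocytes. The part of these markers in the differences of the 9 genes was not tested, and in bulk RNA fewer cells of a type and less RNA per cell cannot be told apart.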

How the data were processed

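The authors deposited 1 log2 value per probe set, called a probe here, for each of 2 arrays. Per the submitters' processing notes the tools were RMA, Partek 6.4 and Affymetrix Expression Console 1.0, without saying which did what. RMA brings arrays to a common distribution and compresses differences of dim transcripts. Which build the authors used is not stated, the table holds no detection call, and with so few arrays precision is limited by their number. Promoter windows are RefSeq's on GRCm38.p6.

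Gene symbols came from the platform's annotation. Of 28853 probes, 21789 carried 1 symbol and only these were used, with the probe of highest mean level standing for a gene. Differences are knockout-labelled minus wild-type log2 values with no further scaling. The level filter is the 40th percentile of the mean over probes with 1 symbol. The array medians were 5.71 in the knockout-labelled and 5.76 in the wild-type pool. No p-value is given, since each group holds 1 array.

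The 9 genes and the 10 pathway lists, with 183 entries, were chosen with earlier results of these data known. Summed over the lists 167 genes were measured, or 163 distinct genes, since Cyp2b10, Bcl6, Fkbp4 and Sesn1 each stand in 2 lists. The list around Sgk1 includes Pdk1 by symbol, a pyruvate dehydrogenase kinase. The genes named are the 9, Fhl2, list genes past 1.5-fold, the 2 highest and 2 lowest of each list, and the 3 nearest to Ddit4; others were picked after their values were seen. Alternatives were a common median, lowess with a span of 0.3, the mean over probes, no filter, a filter at the 60th percentile, and a milder (25% apart) and a 2-fold threshold. Scripts were first tested on simulated data. Python 3.11.15, pandas 2.3.3 and statsmodels 0.14.6 were used.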

Additional observations from a re-analysis of the deposited data

How the results depend on the processing

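No paired analysis was possible because each group holds 1 array. Of 249 alternative values 240 stayed within 0.143, the SD between probes, or within 1.5 times the reported count. The other 9 were counts. Many of the 240 could not have moved. Removing the -0.041 shift of the median changes every difference by the same amount, less than 0.143. The mean over probes leaves any gene with 1 probe as it was. The 240 are therefore no measure of how firm the results are. With a threshold of 25% in place of 1.5-fold, 3 of the 9 receptor and target genes and 583 of all genes were higher, and 453 of all genes were lower. With 2-fold, 11 of all genes were higher and 2 lower. Without the level filter 153 were higher and 133 lower at 1.5-fold, and with the filter at the 60th percentile 41 were higher and 14 lower, since other numbers of genes are counted. That stricter filter also leaves out Ddit4, and the median of the other 8 was 0.11. The mean over probes cannot move the 9 genes, which have 1 probe each. The median changed sign under at least 1 alternative for 5 of the 10 lists, all with reported medians between -0.05 and 0.03: the receptor's machinery, mTORC1 control, kinases around Sgk1, FKBP relatives and BTB zinc finger relatives. The list of other glucocorticoid-responsive genes ran from 0.17 without the genes known beforehand, an alternative chosen after seeing the data, to 0.30 with the stricter filter. With pools on 1 array each, differences of the size seen in the 9 genes cannot be set against a spread between mice.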
